A study of Mus musculus with 6 samples.

Results

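The genes described here are 8 genes of cellular cholesterol balance, Srebf2, Insig1, Hmgcs1, Idi1, Sqle, Lss, Abca1 and Ch25h, out of 78298 genes in the deposited table. They were chosen by name, as SREBP2 and its target genes together with sterol regulators that have been linked to interferon, and all 8 have a row in the table. The cells were RENCA, a mouse renal adenocarcinoma line, grown in medium with fetal bovine serum. Cells of the oe-AQP1 group were transduced with a lentivirus in which the ubiquitin C promoter drives the mouse Aqp1 coding sequence, and cells of the oe-NC group with the empty vector. Both groups carried the puromycin resistance cassette and were kept under puromycin (2 μg/mL) over 14 days, begun 48 h after transduction. Total RNA of 3 samples per group was sequenced at the 2-week point, all with the same batch label. The labels speak of stably transduced clones and do not say how many integrations or founder cells a group holds, and no untransduced cells were among the samples.

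Cells hold their cholesterol within narrow limits by a feedback loop. When sterol in the endoplasmic reticulum is low, the escort protein SCAP carries the membrane-bound factor SREBP2 to the Golgi, where it is cut and freed to enter the nucleus and switch on the genes of cholesterol synthesis and lipoprotein uptake. When sterol is plentiful, INSIG proteins hold SCAP and SREBP2 back, and oxysterols activate the LXR receptors, which raise genes of sterol export such as Abca1. In the kidney, tubule cells both make cholesterol and take it up, and clear cell renal carcinoma is known for its stores of cholesterol ester and other lipids. Interferon is known to induce Ch25h in macrophages, and its product 25-hydroxycholesterol retains SREBP2 in the endoplasmic reticulum.

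SREBP2 acts at sterol regulatory elements in promoters, with the factors NF-Y and Sp1 bound close by, so the promoters of the genes that were lower together are shown first. RefSeq sequence on GRCm38.p6 was found for 7 of the 8 genes, Sqle being the exception. The 250 bases before the start site are shown for the 5 genes with sequence that were lower in oe-AQP1 cells and for Abca1, which was higher, each 5′ to 3′ on the strand of its gene. Capitals mark the sterol regulatory element (searched as TCACNCCAC) and the NF-Y box (CCAAT, which reads ATTGG on the other strand), both searched on both strands.
Hmgcs1 (chr13:119690101-119690350, + strand): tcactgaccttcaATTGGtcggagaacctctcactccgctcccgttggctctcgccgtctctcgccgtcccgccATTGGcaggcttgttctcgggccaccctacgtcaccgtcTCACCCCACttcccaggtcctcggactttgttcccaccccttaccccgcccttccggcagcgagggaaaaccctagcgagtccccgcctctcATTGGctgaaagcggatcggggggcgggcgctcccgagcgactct
Idi1 (chr13:8885356-8885605, + strand): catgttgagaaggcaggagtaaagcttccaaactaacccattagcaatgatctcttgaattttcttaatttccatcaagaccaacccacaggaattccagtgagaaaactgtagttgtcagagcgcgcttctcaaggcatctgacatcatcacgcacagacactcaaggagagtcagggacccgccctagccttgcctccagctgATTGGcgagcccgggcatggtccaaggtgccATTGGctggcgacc
Lss (chr10:76531355-76531604, + strand): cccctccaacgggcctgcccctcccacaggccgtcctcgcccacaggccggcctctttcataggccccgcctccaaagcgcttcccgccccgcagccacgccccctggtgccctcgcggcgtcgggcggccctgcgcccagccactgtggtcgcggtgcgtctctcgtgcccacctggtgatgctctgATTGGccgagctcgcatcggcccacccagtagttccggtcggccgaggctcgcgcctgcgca
Insig1 (chr5:28071162-28071411, + strand): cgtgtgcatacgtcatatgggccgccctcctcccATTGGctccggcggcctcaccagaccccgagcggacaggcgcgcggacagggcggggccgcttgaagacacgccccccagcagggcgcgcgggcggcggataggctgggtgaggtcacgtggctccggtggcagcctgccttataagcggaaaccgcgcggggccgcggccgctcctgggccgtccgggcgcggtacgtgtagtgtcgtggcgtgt
Srebf2 (chr15:82147019-82147268, + strand): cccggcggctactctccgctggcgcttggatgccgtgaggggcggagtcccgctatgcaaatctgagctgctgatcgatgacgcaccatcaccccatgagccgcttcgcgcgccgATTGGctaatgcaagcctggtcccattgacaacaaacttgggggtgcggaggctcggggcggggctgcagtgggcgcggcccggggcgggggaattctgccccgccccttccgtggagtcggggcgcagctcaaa
Abca1 (chr4:53159896-53160145, - strand): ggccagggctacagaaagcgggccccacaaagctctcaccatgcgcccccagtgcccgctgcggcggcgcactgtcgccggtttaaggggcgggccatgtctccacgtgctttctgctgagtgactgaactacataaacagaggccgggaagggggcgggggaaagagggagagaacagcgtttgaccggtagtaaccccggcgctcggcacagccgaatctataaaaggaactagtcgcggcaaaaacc
An exact sterol regulatory element stood in the Hmgcs1 window, where TCACCCCAC began 137 bases before the start. This element was found in 1.05% of all 32851 promoter windows in the table. Near matches, such as TCACCCCAT in the Srebf2 window, were neither counted nor marked. The NF-Y box was present in all 5 windows of the genes that were lower and in neither the Abca1 nor the Ch25h window, against 33.8% of all windows. Of 15 cholesterol synthesis genes with sequence, 14 had an NF-Y box in at least 1 of their windows, against 37.5% of all 27025 genes. Hmgcs1 was the 1 gene of these 15 with the exact sterol regulatory element, against 1.22% of all genes. The Sp1 box (GGGCGG) was found in the windows of Srebf2, Hmgcs1, Idi1, Insig1, Abca1 and Lss, against 32.7% of all windows. The interferon-stimulated response element was searched as GAAA repeated after any 2 bases, found in 2.98% of all windows. The LXR element was searched as AGGTCA repeated after any 4 bases, found in 0.0152%. None of the 7 windows held an exact match to either. These are matches of letters, not sites of binding. A short window can miss an element that lies farther away. An exact search also misses elements inside the window that differ from the letters searched, so a window without a match may still hold one.

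The libraries held between 18385714 and 21920899 counts. The counts of Aqp1, the delivered gene, were 7713, 8545 and 7838 with the AQP1 vector and 41, 25 and 45 with the empty vector, as labelled. Kidney epithelial transcripts were present, Pax8 at 163.7 ± 7.0 CPM in oe-AQP1 and 172.4 ± 7.1 CPM in oe-NC cells (SD, n = 3), whereas the epithelial adhesion gene Epcam had no count in any sample. oe-NC sample 1 stood apart from the other oe-NC samples, with a chi-square of 9.75 and 11.3 per gene against them, where all other pairs within a group gave 1.74 to 2.06. For several genes that it shifted, results are therefore given with and without it. CPM here is the count scaled to library size and by TMM, FDR is the Benjamini-Hochberg adjusted p-value of limma-voom over the 15522 genes that passed the low-count filter, and log2FC is oe-AQP1 against oe-NC.

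Of the 8 genes, 7 passed the filter, and all 7 differed between the groups at an FDR under 0.05. The factor Srebf2, its restrainer Insig1 and the synthesis enzymes Hmgcs1, Idi1, Sqle and Lss, 6 genes in all, were lower in oe-AQP1 cells, by 14.7% to 31.5%, and the exporter Abca1 was 38.8% higher. Ch25h had no count in any of the 6 samples. Across all genes tested, 16.6% were lower and 16.0% higher at this threshold (32.5% in either direction). None of the 7 was changed more than 2-fold, the study's own fold threshold, which together with the FDR was passed by 5.23% of all genes (4.39% higher and 0.844% lower). In each of the 7 the samples of the groups did not overlap in CPM, as was the case for 47.3% of all genes tested (23.8% with oe-AQP1 lower and 23.5% with oe-AQP1 higher). In bulk RNA, fewer cells that express a gene and less of its RNA per cell cannot be told apart.

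**Figure D1:**
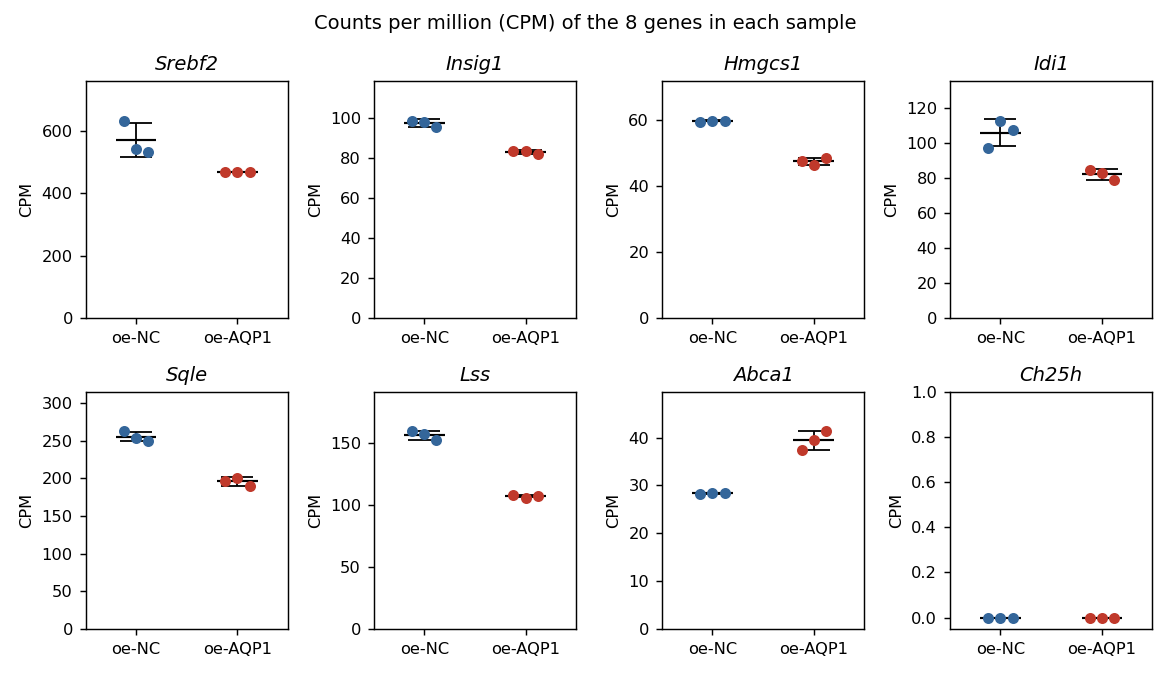
Level in CPM (linear axis) of each of the 8 genes in the 3 oe-NC (blue) and 3 oe-AQP1 (red) samples; horizontal lines are means and bars are ± 1 SD. The oe-AQP1 samples lie below all oe-NC samples for 6 genes and above them for Abca1, and Ch25h is at 0 throughout.

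Per length of the transcript, Srebf2 was the most abundant of the 8 in both groups, at 112 ± 11 CPM per kilobase in oe-NC and 92.5 ± 0.12 in oe-AQP1 cells (SD, n = 3). Sqle followed at 91.1 ± 2.3 and 69.8 ± 1.9 CPM per kilobase, and then Idi1 at 40.8 ± 3.0 and 31.7 ± 1.2. Insig1, Lss, Hmgcs1 and Abca1 came next in that order, from 35.5 down to 2.76 CPM per kilobase in oe-NC cells and from 30.3 down to 3.84 in oe-AQP1 cells. Neighbours in this order did not overlap between samples, except Idi1 and Insig1 in oe-AQP1 cells, which could not be ranked.

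Srebf2 encodes SREBP2 itself. The gene spans bases 82031382 to 82093201 of chromosome 15 (GRCm39, as are all gene positions here), forward strand. Its level was 469.9, 469.8 and 468.8 CPM in the oe-AQP1 samples and 633.8, 543.2 and 534.1 CPM in the oe-NC samples. The oe-AQP1 samples were nearly equal to each other and lay below the lowest oe-NC sample, while oe-NC sample 1 was well above the rest of its group. The log2FC was -0.28 (standard error 0.06, FDR = 0.005), and without oe-NC sample 1 it was -0.20 (FDR = 1.97e-08). Srebf1, the related gene for the factor of fatty acid synthesis, had a log2FC of 0.01 (FDR = 0.938), at 131.8 ± 0.64 CPM in oe-AQP1 and 131.8 ± 19 CPM in oe-NC cells (SD, n = 3). Without oe-NC sample 1, Srebf1 was higher in oe-AQP1 cells by a log2FC of 0.13 (FDR = 0.00171). No other fit called it, and with 1 sample left out its log2FC ran from -0.07 to 0.13.

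Insig1 encodes the membrane protein that holds SCAP and SREBP2 in the endoplasmic reticulum, and it is itself an SREBP target. It lies on chromosome 5 from 28276315 to 28283668, forward strand. The oe-AQP1 samples had 83.4, 83.5 and 81.9 CPM and the oe-NC samples 98.6, 98.1 and 95.1 CPM. The gap between the groups was several times the spread within either, with a log2FC of -0.23 (standard error 0.04, FDR = 0.00161). Its promoter window above held an NF-Y box 216 bases before the start.

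Around these genes, a list of 10 genes of SREBP control was counted, Srebf2 and Insig1 among them. At an FDR under 0.05, 6 were lower and 1 was higher, where 16.6% of all genes tested were lower and 16.0% higher. With 1 sample left out at a time, 4 to 7 were lower and 1 to 2 higher. The median log2FC of the list was -0.19, and that of all genes tested was 0.00234. Scap, the escort, had a log2FC of -0.26 (FDR = 0.0263), which was -0.16 (FDR = 0.00278) without oe-NC sample 1. Its call was lost when oe-AQP1 sample 1, 2 or 3 was left out (FDR = 0.0808, 0.089 and 0.07). Mbtps1, the protease that makes the first cut in SREBP, had a log2FC of -0.23 (FDR = 0.00218), whereas Mbtps2, which makes the next cut, did not pass (log2FC = -0.05, FDR = 0.628). Insig2 missed the threshold as well (log2FC = -0.18, FDR = 0.0661) but passed it without oe-NC sample 1 (log2FC = -0.25, FDR = 0.00106). The exception in direction was Rnf139, which encodes TRC8, a ubiquitin ligase of the endoplasmic reticulum. In oe-AQP1 cells it reached 77.3 ± 1.8 CPM, from 45.9 ± 2.8 CPM in oe-NC cells (SD, n = 3). The log2FC was 0.76 (standard error 0.05, FDR = 2.72e-06).

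Hmgcs1 encodes the synthase that makes HMG-CoA early in the pathway. The gene lies on chromosome 13 from 120151915 to 120170470, forward strand. It had 47.7, 46.5 and 48.7 CPM in the oe-AQP1 samples and 59.7, 60.0 and 60.0 CPM in the oe-NC samples. All 3 oe-AQP1 samples were lower, and the oe-NC samples hardly differed. The log2FC was -0.33 (standard error 0.04, FDR = 0.000316).

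Idi1 encodes the isomerase that makes the reactive isoprenoid unit from isopentenyl diphosphate. It lies on chromosome 13 from 8935537 to 8942487, forward strand. The oe-AQP1 samples had 84.7, 82.8 and 78.6 CPM and the oe-NC samples 97.3, 112.7 and 107.4 CPM. Here oe-NC sample 1 was the lowest of its group, so that the log2FC of -0.36 (standard error 0.06, FDR = 0.000988) became -0.42 (FDR = 1.85e-08) without it.

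Sqle encodes squalene epoxidase, a rate-limiting enzyme of the pathway, which adds the first oxygen on the way from squalene to sterols. It lies on chromosome 15 from 59186869 to 59203043, forward strand. Its level was 196.9, 200.9 and 190.2 CPM in the oe-AQP1 samples and 262.7, 254 and 250 CPM in the oe-NC samples. Both groups were tight and lay well apart, and the log2FC was -0.38 (standard error 0.04, FDR = 3.93e-05).

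Lss encodes lanosterol synthase, which closes the product of SQLE into the first sterol ring system. It lies on chromosome 10 from 76367298 to 76392976, forward strand. With 107.9, 106.1 and 107.4 CPM in the oe-AQP1 samples and 159.6, 157.0 and 152.7 CPM in the oe-NC samples, its groups lay well apart. The log2FC was -0.55, the largest decrease among the 6 lower genes (standard error 0.04, FDR = 2.45e-06). Its 95% confidence interval of -0.63 to -0.46 lay outside those of Insig1, -0.32 to -0.14, Srebf2, -0.41 to -0.15, and Hmgcs1, -0.43 to -0.23. It overlapped those of Sqle, -0.47 to -0.30, and Idi1, -0.50 to -0.23. The intervals of Srebf2, Hmgcs1, Idi1 and Sqle overlapped one another.

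A list of 20 enzymes that lead from acetyl-CoA to cholesterol, Hmgcs1, Idi1, Sqle and Lss among them, was read in pathway order. It was chosen with earlier results of these data known, and its counts include these 4. Of the 19 that passed the low-count filter, 17 were lower, 0 were higher and 2 did not pass the test, and all 19 log2FC values were negative. The lower genes made up 89.5% of those tested, where 16.6% of all genes were lower, and the median log2FC was -0.32. Decreases ran from the first step, Acat2 (log2FC = -0.34, FDR = 0.000131), through Mvd (-0.41), Fdps (-0.25) and Cyp51 (-0.34) to the late enzyme Dhcr7 (-0.16, FDR = 0.0142). Without oe-NC sample 1, Mvd had a log2FC of -0.31 (FDR = 8.03e-05). The call of Dhcr7 was lost without oe-AQP1 sample 1 (FDR = 0.0725) or sample 3 (FDR = 0.0521). The extremes of the list were the genes that missed the threshold. Pmvk had a log2FC of -0.09 (FDR = 0.506), and Tm7sf2 had one of -0.66 (standard error 0.23, FDR = 0.0534), with counts of only 25 to 50 under the AQP1 vector and 43 to 64 under the empty vector. It passed without oe-AQP1 sample 2 (log2FC = -0.87, FDR = 0.0406). With 1 sample left out at a time, 12 to 16 of these genes were lower and 0 higher, and 16 were lower without oe-NC sample 1. Without adjustment (p under 0.05), 18 of the 19 were lower and 0 higher. The other tools called 0 higher as well, with 17 lower by edgeR's quasi-likelihood test and 14 by DESeq2.

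**Figure D2:**
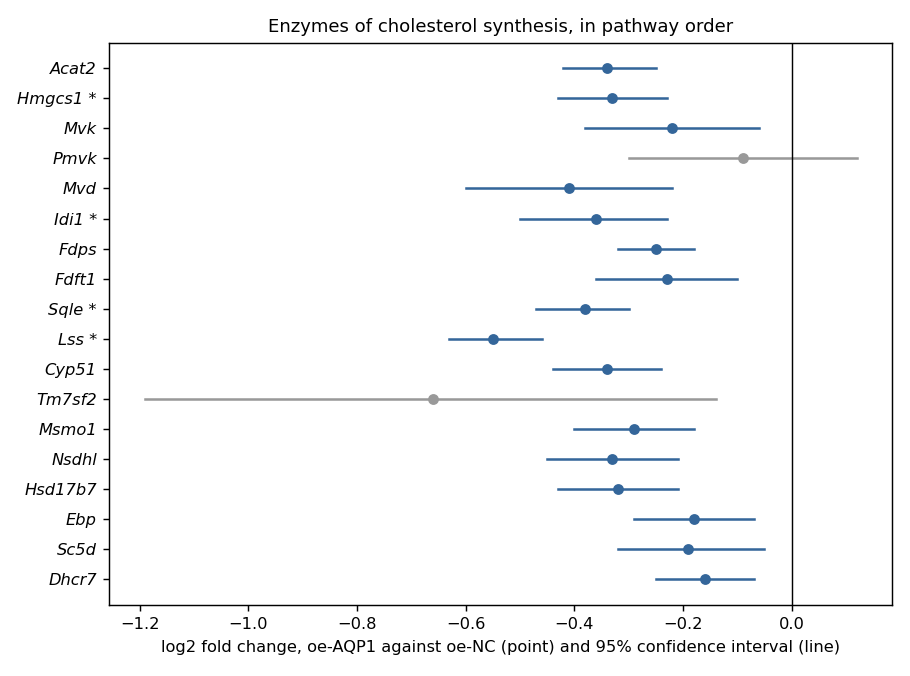
log2FC of oe-AQP1 against oe-NC (points) with 95% confidence intervals from limma-voom (lines) for 18 of the 19 cholesterol synthesis enzymes tested, from the start of the pathway at the top; asterisks mark Hmgcs1, Idi1, Sqle and Lss. Blue points are lower at an FDR under 0.05 and grey points did not pass, so that 16 blue points lie left of 0 (1 of the 17 lower genes is not drawn), with Lss the lowest of them.

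Uptake and handling of cholesterol inside the cell were read from 12 genes, all of which passed the filter. Here 7 were lower (58.3%), 2 were higher and 3 did not pass, with a median log2FC of -0.20. With 1 sample left out at a time, 5 to 7 were lower and 2 higher. Across all genes tested, 16.6% were lower and 16.0% higher. Stard4, which carries cholesterol between membranes and is an SREBP2 target, had the largest decrease of the list, with 39.6 ± 0.48 CPM against 60.0 ± 3.3 CPM (log2FC = -0.60, FDR = 1.95e-05). Lipa, the lysosomal lipase that frees cholesterol from lipoproteins taken up, was lower as well (log2FC = -0.51).

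The genes of this list that rose were Mylip and Npc2. Mylip encodes IDOL, an LXR-induced ubiquitin ligase that limits lipoprotein uptake. It had 24.6, 26.4 and 28.2 CPM in the oe-AQP1 samples and 16.9, 17.2 and 15.6 CPM in the oe-NC samples. This gave a log2FC of 0.67 (SE 0.07, FDR = 8.49e-05). Npc2, the lysosomal protein that passes cholesterol to NPC1, rose from 217.5 ± 13 CPM to 337.5 ± 1.5 CPM (SD, n = 3; log2FC = 0.64, FDR = 2.58e-06), whereas Npc1 did not pass (log2FC = -0.02, FDR = 0.825).

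Abca1 encodes the transporter that loads cellular cholesterol onto apolipoprotein A-I. It lies on chromosome 4 from 53030787 to 53159900, on the reverse strand. The oe-AQP1 samples had 37.3, 39.6 and 41.3 CPM and the oe-NC samples 28.3, 28.5 and 28.3 CPM. The oe-NC samples were almost equal, and every oe-AQP1 sample was above them. The log2FC was 0.47 (standard error 0.06, 95% confidence interval 0.35 to 0.60, FDR = 0.000149), and it was 0.47 without oe-NC sample 1 too. An exact two-sided permutation test of each of the 7 genes gave p = 0.1, which is as low as groups of 3 and 3 allow.

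Of 10 genes for LXR receptors, exporters and LXR targets, 5 passed the filter, 2 of them higher, 2 lower and 1 without a call. Their median log2FC was 0.15, and 32.5% of all genes tested were called in either direction. Both receptor genes were lower, Nr1h3 (LXRα) by a log2FC of -0.44 (FDR = 0.00046) and Nr1h2 (LXRβ) by one of -0.28 (FDR = 0.00884). For Nr1h2 the log2FC was -0.2 (FDR = 0.000181) without oe-NC sample 1. Lpcat3, an LXR target that remodels phospholipids, was slightly higher (log2FC = 0.15, FDR = 0.0128). It lost its call without oe-AQP1 sample 2 (FDR = 0.0641) and without oe-AQP1 sample 3 (FDR = 0.0648). Abcg1, the exporter to HDL, did not pass the low-count filter, with counts of 9, 12 and 13 under the AQP1 vector and 3, 2 and 5 under the empty vector. These counts did not overlap, and Abcg1 was called higher where no filter was applied (limma-voom FDR = 0.0376). With a sample left out, the filter kept it in 4 fits, where it was higher without oe-AQP1 sample 1 (FDR = 0.0235), oe-NC sample 1 (FDR = 0.0343) or oe-NC sample 3 (FDR = 0.0204) and missed the threshold without oe-NC sample 2 (FDR = 0.0516).

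**Figure D3:**
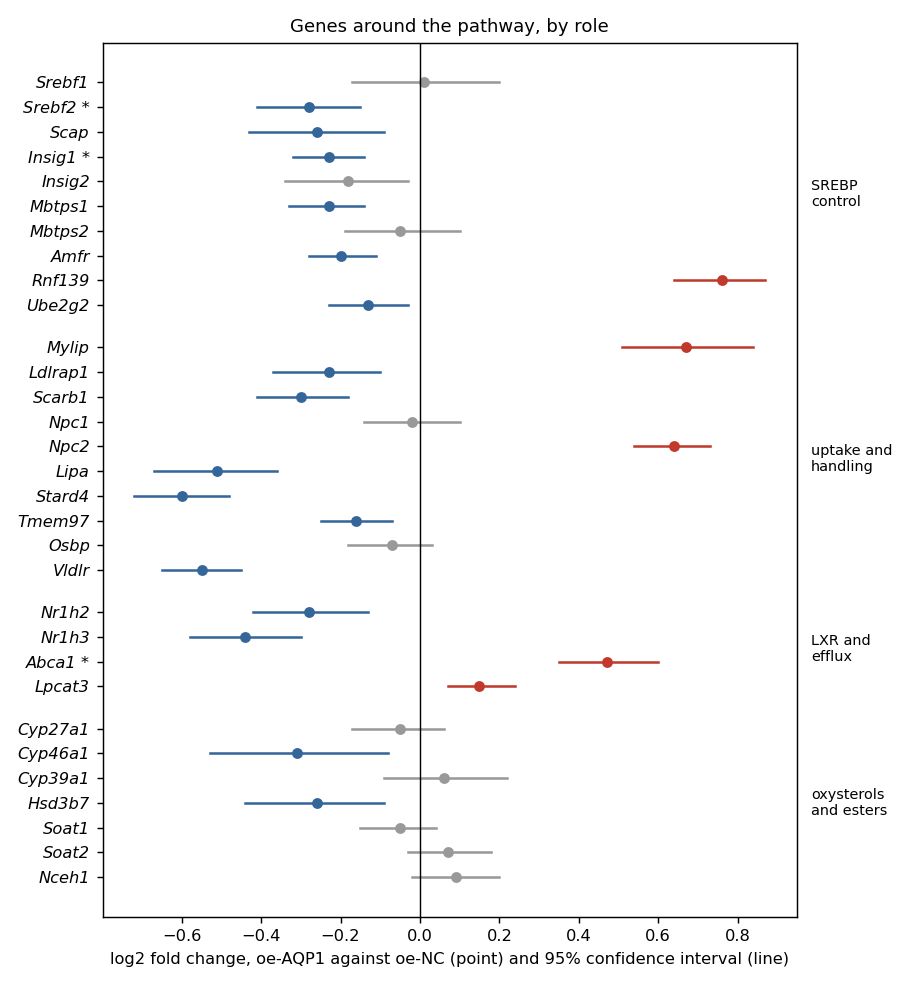
log2FC of oe-AQP1 against oe-NC (points) with 95% confidence intervals (lines) for tested genes of SREBP control, uptake and handling, LXR and efflux, and oxysterols and esters; asterisks mark Srebf2, Insig1 and Abca1. Blue is lower and red higher at an FDR under 0.05, grey did not pass, and Rnf139, Mylip, Npc2 and Abca1 stand out on the right while most called genes lie on the left.

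Ch25h encodes cholesterol 25-hydroxylase and consists of a single exon on chromosome 19, from 34451178 to 34452564 on the reverse strand. It was listed at 0 in all 6 samples. A count of 0 allows up to 3 counts, or 0.136 to 0.164 CPM depending on the library, so expression below that level could not be detected. This limit covers counting error alone. In the same samples the interferon-stimulated genes were high, with 10 of 10 genes of a short list (among them Isg15, Ifit1, Ifit3, Mx1, Irf7, Oasl2, Rsad2, Usp18 and Cxcl10) higher in oe-AQP1 cells by more than 2-fold and a median log2FC of 2.49. Their log2FC values ran from 1.74 (Usp18) to 5.91 (Mx1), and Irf7, at 491.4 ± 16 CPM (SD, n = 3), was abundant in oe-NC cells already. Among all genes tested, 4.39% were higher past the FDR and 2-fold. Of the 10 genes for oxysterols and sterol esters, 7 were tested, 0 were higher and 2 lower, with a median log2FC of -0.05. The lower share was 28.6%, where 32.5% of all genes tested were called in either direction and 16.6% were lower. The lower genes were Cyp46a1 (log2FC = -0.31, FDR = 0.0425) and Hsd3b7 (log2FC = -0.26, FDR = 0.0289), both lost with DESeq2 (FDR = 0.163 and 0.109). With a sample left out, at most 1 of them passed, Hsd3b7 without oe-AQP1 sample 3 or oe-NC sample 1 and Cyp46a1 without oe-NC sample 2. Without adjustment (p under 0.05), 0 were higher and 2 lower, and edgeR and DESeq2 also called 0 higher. Gpr183, the receptor for an oxysterol made from the product of CH25H, had at most 1 count in any sample. The highest value of the list was that of Nceh1, a hydrolase of cholesterol esters (log2FC = 0.09, FDR = 0.194). The esterifying enzymes Soat1 and Soat2 did not pass (log2FC = -0.05 and 0.07), although Soat2 did without oe-NC sample 1 (log2FC = 0.1, FDR = 0.0393).

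Since SREBP factors also drive fatty acid synthesis, a list of 14 such genes was set beside the cholesterol enzymes. Of the 12 tested, 10 were lower and 1 higher, 83.3% lower against 89.5% in the cholesterol list, with medians of -0.26 and -0.32. Among all genes tested, 16.6% were lower and 16.0% higher. A difference between the lists was not tested. Scd2, a stearoyl-CoA desaturase, fell most, from 845.7 ± 11 CPM to 477.2 ± 3.7 CPM (SD, n = 3; log2FC = -0.83, FDR = 1.22e-08). Fasn, the fatty acid synthase, had a log2FC of -0.36 (FDR = 0.00561), which was -0.25 (FDR = 7.39e-09) without oe-NC sample 1. The gene that rose was Thrsp, a lipogenic regulator, at 9.92 ± 0.48 CPM against 6.05 ± 0.34 CPM (log2FC = 0.72, FDR = 0.000335).

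**Figure D4:**
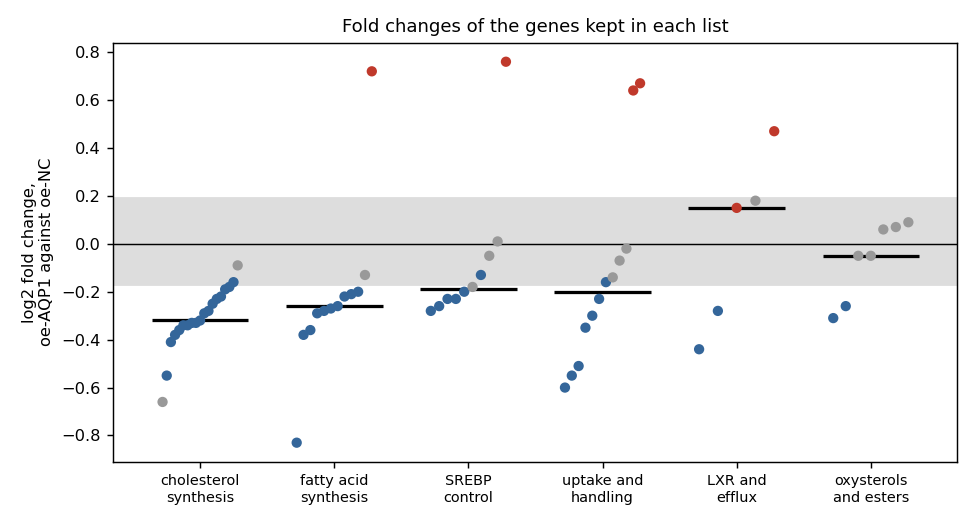
log2FC of oe-AQP1 against oe-NC for each tested gene of 6 lists (points, spread sideways by rank), with the list's median as a black line and the range from the lower to the upper quartile of all 15522 genes, -0.17 to 0.19, as a grey band. Blue is lower and red higher at an FDR under 0.05, and grey did not pass; most cholesterol and fatty acid synthesis genes lie below the band, and the efflux list spreads to both sides.

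Other groups of genes were counted in the same samples. Over 10 kidney epithelial markers, 9 of them tested, 5 were lower (55.6%) and 0 higher, where 16.6% of all genes were lower. Their summed level was 851 to 884 CPM with the AQP1 vector and 1040 to 1150 CPM with the empty vector. The lowest was Lrp2, the endocytic receptor megalin (log2FC = -0.93), and the highest Pax2 (log2FC = 0.25, FDR = 0.124), which was higher without oe-NC sample 1 (log2FC = 0.41, FDR = 3.99e-06). Of 12 macrophage markers, looked at because macrophages express Ch25h and Abca1, 4 passed the filter, 2 were lower and 0 higher. Across all genes, 32.5% were called in either direction, so a count over 4 genes says little. The summed level was 59.8 to 63.1 CPM with the AQP1 vector and 69.6 to 71.9 CPM with the empty vector. The most abundant was Cd68 (log2FC = 0.15, FDR = 0.0764). Csf1r was lower by more than 2-fold (log2FC = -1.51, FDR = 1.31e-05). Lyz2 was the other lower gene, at 11.9 CPM in oe-AQP1 and 17.1 CPM in oe-NC cells (log2FC = -0.52, FDR = 0.000273). Cd14 was at 11.5 and 12.9 CPM and did not pass (log2FC = -0.16, FDR = 0.147). Among the markers removed by the filter, Adgre1 and Tyrobp were at 0 in all 6 samples, and Ptprc had at most 3 counts. Below the filter, Mrc1 had 5, 2 and 2 counts with the AQP1 vector and 0 in every sample with the empty vector, and was called higher where no filter was applied (FDR = 0.00673). Aif1 had 12, 15 and 9 counts against 5, 8 and 4, without a call (FDR = 0.19 with no filter). The part of these shifts, and of the interferon genes, in the lower synthesis genes was not tested.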

How the data were processed

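Illumina TruSeq libraries of total RNA from 6 RENCA samples were sequenced. The authors deposited expected counts per gene, not scaled between samples, with 10.2% of values not whole. The submitters' processing notes name fastp, HISAT2, featureCounts, Subread and GRCm38 (mm10), whereas the paper names GRCm39. Of the 78298 gene identifiers 78168 are in GENCODE M39 (GRCm39), which gave gene positions and the canonical transcript lengths. The deposited group means were not used. Expected counts were not whole in every sample for Srebf2, Hmgcs1, Idi1 and Lss, as where reads are divided among genes.

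Counts were rounded, filtered with filterByExpr (15522 genes kept), scaled by TMM and compared by limma-voom (R 4.3.3, edgeR 4.0.16, limma 3.58.1), and p-values were Benjamini-Hochberg adjusted over all genes kept. The paper names limma-voom and TMM but no low-count filter. The script was tested on simulated data. The 8 genes and all lists were chosen with earlier results of these data known. Genes named were the 8, Aqp1, the extremes of each list and its genes past 2-fold, and the 5 genes most alike in pattern. All others named, Npc2, Abcg1, Mrc1 and Aif1 among them, were chosen after their values were seen. Some genes counted in the lists are not reported here. The sources used here do not say whether the 3 samples of a group were separate cultures, so p-values measure only the spread between these samples, which may be technical. Alternatives included DESeq2 1.42.0.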

Additional observations from a re-analysis of the deposited data

How the results depend on the processing

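The 7 tested genes kept their direction and an FDR under 0.05 in all 16 alternatives, with 6 lower and 1 higher each time and 0.0267 as the highest FDR (Srebf2 without oe-AQP1 sample 3). These were DESeq2, edgeR's quasi-likelihood test, sample quality weights, 3 other scalings, 2 other filters, unrounded counts, a replicate block and the omission of each sample. The lower synthesis genes numbered 17 with limma-voom, 14 to 18 across the alternatives with all samples and 12 to 16 with a sample left out. With the replicate block there were 17. The deviations of same-numbered samples from their group means correlated by 0.0147, -0.0201 and -0.0729 over 15522 genes. Such values cannot show whether those samples were handled together, and the labels do not say. Under the block, 4825 genes passed the FDR in place of 5050. Required to have at least 10 counts in every sample, 482 genes passed the FDR and 2-fold thresholds in place of 812. Among the single genes of all lists, 1352 values under the alternatives kept their call or lack of one, 57 lost it, 15 gained one and 0 reversed. With 3 samples a group, and at low counts such as those of Tm7sf2, changes of the size seen here can be missed, so a gene without a call may still differ.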

Other observations

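The genes most like the SREBP2 targets in pattern were sought over the 6 samples, by Pearson's r of log2 CPM with the mean of Hmgcs1, Sqle, Idi1, Insig1 and Lss, among 9750 genes of at least 10 CPM. The highest were Dazap2 (r = 0.9992, log2FC = -0.34), Rrm2 (r = 0.9987, log2FC = -0.31), a subunit of ribonucleotide reductase, Lamp1 (r = 0.9986, log2FC = -0.37), a membrane protein of the lysosome, Xrcc6 (r = 0.9985, log2FC = -0.26), the DNA repair protein Ku70, and Zfp106 (r = 0.9984, log2FC = -0.44). None of them is on a sterol list used here. The samples fall into 2 groups, so a high r mostly marks a similar difference between the groups, and 9.83% of the genes compared had an r above 0.95.

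Within a group, the median deviation of the 19 synthesis enzymes in a sample from their group means lay between -0.01 and 0.01 on the log2 scale in all 6 samples. Single enzymes deviated more. The widest deviations, -0.5 in oe-AQP1 sample 3 and 0.39 in oe-AQP1 sample 2, were both those of Tm7sf2, with counts of only 25 and 50 there. The enzymes above their group mean numbered 13, 9 and 8 of 19 in oe-AQP1 samples 1, 2 and 3 and 10, 10 and 9 in oe-NC samples 1, 2 and 3.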
